A study of Homo sapiens with 12 samples.

Results

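Taurolidine plus TRAIL was compared with no treatment in 3 human soft tissue sarcoma lines: A-204 (labelled rhabdomyosarcoma), SK-LMS-1 (leiomyosarcoma) and VA-ES-BJ (epithelioid sarcoma). The comparison used 6 of the series' 12 arrays, the 3 combination arrays and the 3 untreated ones, chosen by the agent named in the labels and paired by line. Combination-treated cells received 250 µmol/l taurolidine and 50 ng/ml TRAIL for 6 h. The arrays of taurolidine alone (250 µmol/l) and TRAIL alone (50 ng/ml), also 6 h and 3 arrays each, were used to set the combination against either agent. Untreated cells received neither agent, and a vehicle is not given in the sources used here. Each line and treatment had 1 array, so a group is 3 different established lines and not 3 cultures of one line. The p-values rest on a residual spread pooled over all 12 arrays, with those of taurolidine alone and TRAIL alone included. They are therefore not a measure only of how far the lines differ in their response to the combination. The labels do not say whether arrays came from separate cultures, so part of the residual spread may be technical.

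TRAIL is a ligand of the tumour necrosis factor family that can kill cells. Its death receptors are the products of TNFRSF10A and TNFRSF10B. The bound receptors recruit the adaptor FADD, which gathers caspase 8 into a signalling complex, and CFLAR competes there with caspase 8. Active caspase 8 cuts further death proteins, among them BID, which engages the BCL2 family, cytochrome c release and the apoptosome of APAF1 and caspase 9. Taurolidine is a taurine derivative used as an antimicrobial that breaks down to methylol compounds and is also toxic to tumour cells. The series title speaks of synergy between these agents.

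Promoter sequence is shown for 5 genes on which the comparison turns: FOS, FOSB, EGR1 and PTGS2, early-response genes that rose, and MED26, a Mediator subunit with the largest named fall. Each line gives the 250 bases before the gene's start (RefSeq, GRCh38.p14), 5′ to 3′ on the gene's strand. Capitals mark the letters TGACG (the half-site of the cAMP response element) on either strand, TATAAA, and CArG boxes, the motif that serum response factor is known to bind.
FOS (chr14:75278578-75278827, plus strand): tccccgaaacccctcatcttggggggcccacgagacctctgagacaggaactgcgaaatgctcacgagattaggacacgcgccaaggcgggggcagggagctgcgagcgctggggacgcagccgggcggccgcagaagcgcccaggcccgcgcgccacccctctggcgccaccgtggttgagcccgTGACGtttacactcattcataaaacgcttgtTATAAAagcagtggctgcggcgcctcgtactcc
FOSB (chr19:45467746-45467995, plus strand): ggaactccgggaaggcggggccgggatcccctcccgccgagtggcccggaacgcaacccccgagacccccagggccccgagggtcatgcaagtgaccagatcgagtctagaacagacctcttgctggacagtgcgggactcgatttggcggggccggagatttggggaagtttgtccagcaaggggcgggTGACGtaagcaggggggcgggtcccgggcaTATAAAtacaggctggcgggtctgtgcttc
EGR1 (chr5:138465229-138465478, plus strand): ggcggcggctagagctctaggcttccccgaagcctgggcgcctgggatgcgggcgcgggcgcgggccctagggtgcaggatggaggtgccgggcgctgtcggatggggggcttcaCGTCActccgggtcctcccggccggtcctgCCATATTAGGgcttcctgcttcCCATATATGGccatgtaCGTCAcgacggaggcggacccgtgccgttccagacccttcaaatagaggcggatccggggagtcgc
PTGS2 (chr1:186680424-186680673, minus strand): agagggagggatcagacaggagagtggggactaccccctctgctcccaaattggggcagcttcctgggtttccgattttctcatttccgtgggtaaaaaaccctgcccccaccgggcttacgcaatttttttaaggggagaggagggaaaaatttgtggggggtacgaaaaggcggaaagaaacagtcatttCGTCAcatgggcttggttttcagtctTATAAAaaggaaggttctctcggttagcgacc
MED26 (chr19:16628205-16628454, minus strand): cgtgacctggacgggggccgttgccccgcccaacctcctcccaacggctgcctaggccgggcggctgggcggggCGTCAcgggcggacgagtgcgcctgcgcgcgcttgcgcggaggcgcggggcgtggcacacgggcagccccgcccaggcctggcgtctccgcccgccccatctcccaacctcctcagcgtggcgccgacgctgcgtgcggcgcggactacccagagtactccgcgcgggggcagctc

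The FOS, FOSB and PTGS2 windows each held TATAAA and 1 TGACG half-site. The half-site began 64 bases before the start in FOS, 60 in FOSB and 58 in PTGS2, and TATAAA began 33, 30 and 32 bases before it. EGR1 held 2 CArG boxes, 105 and 83 bases before the start, and 2 half-sites. MED26 held 1 half-site, 176 bases before the start, and no TATAAA in this window. The windows shown are not typical: of the 12 promoters available for the 15 largest named rises, 4 held TATAAA and 7 a half-site. The FADD window, not shown, held none of the motifs marked. These matches are letters in a window and say nothing of which factor acted there.

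Values are MAS5 signals, a linear array brightness that the submitters' notes name without a version. Every array had the same trimmed mean (1000.1 to 1000.2), so a change in total messenger RNA per cell cannot be seen. Changes are differences of log2(signal + 11.8) with limma's standard error (SE), and a gene was called when its Benjamini-Hochberg adjusted p over 14221 genes was below 0.05. Folds are on that scale and are understated for dim genes. The 27 poly-A control probe sets, which detect bacterial spike transcripts, were higher on the combination arrays by 0.45 ± 0.16 (log2, SD, n = 3 lines). The 3′ to 5′ ratio of GAPDH differed by 0.03 ± 0.01 and that of ACTB by 0.00 ± 0.02. Line markers partly fitted the labels. SMARCB1, whose protein is typically lost in epithelioid sarcoma, had signals of 76.9 in combination-treated and 152 in untreated VA-ES-BJ cells, 1018 and 1235 in A-204 cells, and 4146 and 3530 in SK-LMS-1 cells. TAGLN, a smooth muscle gene, had 10093 with the combination and 8946 without in SK-LMS-1 cells, 4912 and 3908 in VA-ES-BJ cells, and 513 and 623 in A-204 cells. ACTA2, another smooth muscle gene, was highest in VA-ES-BJ cells at 6204 and 4980, against 2077 and 1686 in SK-LMS-1 cells. For rhabdomyosarcoma, 5 of 14 skeletal muscle markers were tested, MYOD1 and MYOG were not among them, and the muscle filament gene DES had 116 and 132 in A-204, near the table median of 136.5. The skeletal troponin gene TNNT1 was highest in A-204 cells, at 9599 with the combination and 5677 without. The other skeletal markers tested, MYF6, TNNT3, ACTC1 and DES, were not highest in A-204 cells, either with the combination or without. With the combination, TNNT3, ACTC1 and DES were lowest in A-204 cells. Of 10 epithelial markers tested, KRT5 had 15010 with the combination and 12279 without in A-204 cells. EPCAM, DSP, MUC1 and the dim CDH1 were also highest there. KRT8, KRT18 and KRT19 were highest in VA-ES-BJ cells, KRT19 at 18960 and 16189, against 11.7 and 9.33 in A-204 cells. CLDN7 was highest in SK-LMS-1 cells, and KRT7 in A-204 cells with the combination and SK-LMS-1 cells without. Of the markers of leukocytes, endothelium and erythroid cells, 6, 5 and 3 were tested and none was called. A call concerns change with the combination, so this does not show whether the markers were present. The median signals of these lists with the combination lay between 111 and 312 in the lines. Single markers were brighter, such as TIE1 at 2603 and 2475 in SK-LMS-1 cells and EPOR at 2083 and 2213 in A-204 cells.

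Under the combination, early-response and stress genes such as FOS, ATF3 and GADD45A rose, and a larger set of genes fell, among them MED26, SETD1B and FADD. Of 14221 genes, 2679 were called (18.8%), 1078 higher (7.58%) and 1601 lower (11.3%). Counts for the gene lists below are to be read beside these shares. Large falls were more numerous than large rises: 644 genes fell and 78 rose by at least 2-fold, and 73 fell and 14 rose by at least 4-fold. All 2679 changed in the same direction in the 3 lines, as 51.1% of all genes tested did. In bulk RNA, fewer cells of a state and less RNA per cell cannot be told apart. The balance of rises and falls rested on the scaling, with 40.2% of calls higher as deposited, 52.5% after quantile normalisation, 74.1% with equal array medians and 56 of 4989 after scaling to the spike transcripts. Quantile normalisation gave 1390 genes higher and 1259 lower. The count was lower with a line left out, a fit that also uses fewer arrays. Leaving out A-204 gave 232 calls (22 higher, 210 lower), SK-LMS-1 499 (42 and 457) and VA-ES-BJ 378 (55 and 323), of 14221 genes. List counts in these settings are to be read beside these numbers. The count was 0 when only the 6 arrays were fitted (3361 at an unadjusted p below 0.05).

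FOS, the partner of JUN in the AP-1 transcription factor, had signals of 4939, 21662 and 3289 in combination-treated A-204, SK-LMS-1 and VA-ES-BJ cells, against 325, 108 and 148 in untreated cells. The groups did not overlap and SK-LMS-1 stood highest after treatment. The log2 change was 5.25 (SE 0.76, 38.0-fold, adjusted p = 0.0046 by limma). Its relative FOSB had 1428, 5924 and 2742 with the combination and 185, 155 and 35.7 without, a log2 change of 4.63 (SE 0.71, adjusted p = 0.0061). Neither call held in every fit with a line left out, and such fits use fewer arrays. FOS was not called without A-204 (adjusted p = 0.061, log2 change 5.93) or VA-ES-BJ (0.069, 5.69), but was without SK-LMS-1 (4.12). FOSB was not called without SK-LMS-1 (0.092) or VA-ES-BJ (0.08), but was without A-204 (5.50). The log2 changes stayed between 4.01 and 5.93. Over all genes, calls fell from 2679 to between 232 and 499 in these fits.

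EGR3, a zinc finger factor of the early growth response family, had 2276, 835 and 964 with the combination, against 259, 79.6 and 104 in untreated cells. Its 3 log2 changes lay between 3.08 and 3.21, and it had the smallest adjusted p of all genes (3.12, SE 0.13, adjusted p = 0.00012). ATF3, a stress-induced repressor, reached 6344, 6016 and 6804, against 845, 250 and 873 (3.45, SE 0.45, adjusted p = 0.0030). The combination arrays were thus alike in ATF3, while the untreated arrays differed. The nuclear receptor gene NR4A2 had 2965, 1264 and 372, against 439, 114 and 59.0 (2.84, SE 0.21). Here A-204 was highest in both groups, and the groups overlapped although each line rose.

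**Figure D1:**
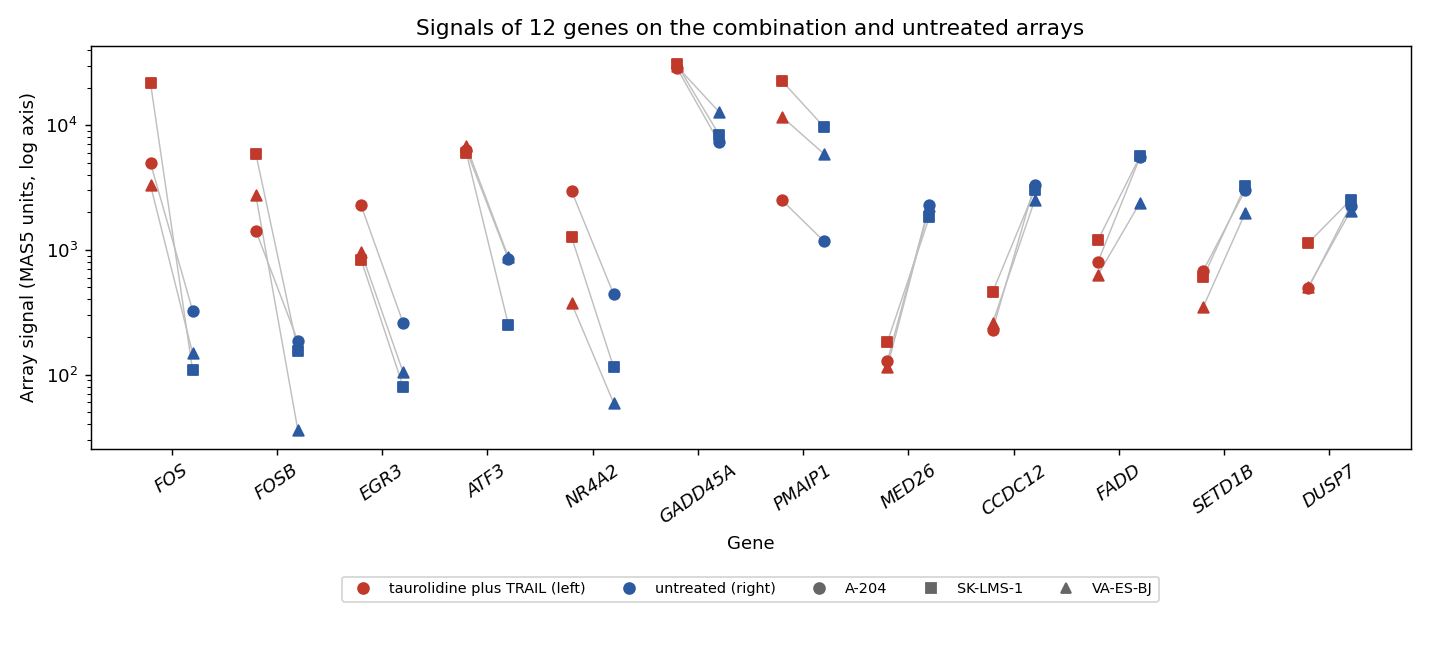
Array signal (MAS5 units, log axis) of 12 genes, with the combination to the left of untreated in each pair, lines joined and shown by marker shape. FOS lies between 3289 and 21662 on the combination arrays and between 108 and 325 on the untreated arrays, while MED26 lies between 115 and 182 and between 1842 and 2305.

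Of the 24 tested immediate early genes, 7 rose and 3 fell, with a median of 0.59 against 0.02 over all genes. EGR1 rose by 1.34 (SE 0.25, adjusted p = 0.012), IER2 by 1.13, IER5 by 1.23 and the small GTPase gene RHOB by 1.66. Leaving out A-204, SK-LMS-1 or VA-ES-BJ left 2, 2 or 4 of these genes called higher. TIPARP, an ADP-ribosyltransferase gene, moved the other way, with 2054, 1979 and 254 in combination-treated cells and 8782, 6016 and 1198 in untreated cells (-1.96, SE 0.13, adjusted p = 0.00042). MYC fell by 1.03. Of 12 tested AP-1 genes 3 rose (FOS, FOSB and MAFF at 1.75) and FOSL2 fell by 0.67. JUN was not called: it had 11028, 16565 and 4952 with the combination and 2078, 5441 and 6970 without, higher in A-204 and SK-LMS-1 and lower in VA-ES-BJ. JUNB was higher in each line (1.63, adjusted p = 0.051) without passing the threshold.

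Among the 26 tested genes of the integrated stress response, which reprogrammes translation and amino acid supply, 5 rose and 6 fell (median -0.11). ATF4, its central factor, had 27857, 34532 and 16570, against 11479, 20221 and 7879 (1.04, SE 0.13, adjusted p = 0.0024). PPP1R15A, the stress-induced phosphatase subunit that reverses the response, rose by 1.94 (SE 0.19). The constitutive subunit PPP1R15B fell by 1.46, the kinase gene EIF2AK3 by 0.94, TRIB3 by 0.87 and SESN2 by 1.62. DDIT3 stood at 0.32 (adjusted p = 0.41). With A-204, SK-LMS-1 or VA-ES-BJ left out, 2, 3 or 1 were called higher and 0, 2 or 2 lower. The members thus split, with inducible ones on both sides.

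Genes of p53 and growth arrest split in the same manner, 4 higher and 3 lower of 23. With A-204, SK-LMS-1 or VA-ES-BJ left out, 1, 2 or 2 were called higher and 1, 2 or 1 lower. GADD45A, which is induced by DNA damage and other stresses, had 28778, 30827 and 29684, against 7297, 8417 and 12814 (1.69, SE 0.18, adjusted p = 0.0016). GADD45B rose by 2.27. PPM1D, the phosphatase that restrains p53, fell to 557, 645 and 632, against 2709, 1741 and 2557 in untreated cells (-1.89, SE 0.18). CDKN1A stood at 0.56 (adjusted p = 0.14) and MDM2 at -1.04 (0.075), neither called. MDM2 was lower in A-204 and VA-ES-BJ and by 0.10 higher in SK-LMS-1.

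Of 21 heat shock genes only HSPB1 was called (0.52, adjusted p = 0.024), while 6 had an unadjusted p below 0.05. HSPA6, the strictly inducible HSP70, had 2951, 22206 and 649 with the combination and 586, 205 and 182 without. It was higher in every line, at 6.68 on the log2 scale in SK-LMS-1 cells but 1.77 in VA-ES-BJ cells, and missed the threshold (3.59, SE 1.26, adjusted p = 0.084). In the NF-kB list, 4 of 28 rose and 2 fell, and 1, 1 or 2 were called higher with A-204, SK-LMS-1 or VA-ES-BJ left out. PTGS2, the inducible cyclooxygenase, had 324, 3088 and 168, against 53, 393 and 24.8 (2.53, SE 0.25, adjusted p = 0.0011), rising in each line although the groups overlapped. IL6 rose by 1.45. The feedback inhibitor TNFAIP3 fell by 1.01, and NFKBIA stood at 1.72 in SK-LMS-1 cells but -1.43 in VA-ES-BJ cells (fitted value 0.17, adjusted p = 0.88).

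In the TRAIL pathway the receptor genes were not called, while the adaptor and the initiator caspase fell. Of 15 tested genes of the ligand, receptors and signalling complex, 1 rose and 3 fell, with a median of 0.09. TNFRSF10B had 7805, 5494 and 26589 with the combination, against 6720, 5641 and 21377 (0.16, SE 0.11, adjusted p = 0.35). TNFRSF10A stood at 0.19 (SE 0.31), the decoy receptor genes TNFRSF10C and TNFRSF10D at 0.10 and 0.09, and TNFSF10 at 0.21. CFLAR stood at -0.12 (SE 0.12), with 3 of its 11 other probe sets of the opposite sign. Such values do not show that the receptors were unchanged, since TNFRSF10C, a dim gene, stood at 1.18 in A-204 cells but -1.05 in SK-LMS-1 cells.

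FADD (chromosome 11, 70203296 to 70207390, GRCh38.p14) had 798, 1195 and 630 in combination-treated cells, against 5537, 5620 and 2391 in untreated cells. The groups did not overlap and each line fell by at least 1.90 on the log2 scale (-2.30, SE 0.18, 4.93-fold, adjusted p = 0.00056). CASP8 had 983, 229 and 2079, against 1790, 451 and 5782 (-1.09, SE 0.17, adjusted p = 0.0063). SK-LMS-1 was lowest in both groups, and CASP8 was not called without A-204 (0.072) or VA-ES-BJ (0.086), nor as the mean of its probe sets (-1.03, adjusted p = 0.12). TNFRSF1A, a receptor for tumour necrosis factor, fell by 0.89 (SE 0.20). DAP3 rose by 0.42, a change that became -0.03 after spike scaling, and it was not called after quantile normalisation (0.26) or as the mean of its probe sets (0.33). FASLG was on the array but not tested, and RIPK1 is not analysed here.

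Downstream, 1 of 17 tested caspase, apoptosome and IAP genes rose and 4 fell. APAF1, the scaffold of the apoptosome, had 412, 928 and 997, against 1182, 1833 and 2128 (-1.18, SE 0.14, adjusted p = 0.0025). One of its 2 other probe sets gave 0.12, and as the mean of its probe sets APAF1 was not called (-0.69, adjusted p = 0.06). The nuclease gene DFFB fell by 0.77, and was not called after quantile normalisation (-0.65) or with equal array medians (-0.55). The caspase inhibitors XIAP and BIRC2 fell by 0.61 and 0.49, with the groups apart in both. XIAP was not called as the mean of its probe sets (-0.39), nor BIRC2 with equal array medians (-0.26). CASP9 rose by 0.60 (adjusted p = 0.044), but was not called after spike scaling (0.15) or as the mean of its probe sets (0.41). With A-204 or VA-ES-BJ left out none of the 17 was called, and 1 was called without SK-LMS-1. BIRC3 is not analysed here.

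Of 19 tested BCL2 family genes, 2 rose and none fell. PMAIP1, which encodes the death-promoting protein NOXA, had 2498, 22540 and 11673, against 1167, 9647 and 5861 (1.10, SE 0.09, adjusted p = 0.00062). The rise was 0.99 to 1.22 in the 3 lines, and PMAIP1 was called whichever line was left out. BNIP3 rose by 0.47, but was not called after spike scaling (0.02) or quantile normalisation (0.30), nor with any 1 line left out. MCL1, the survival protein that NOXA binds, had 9995, 5178 and 9262, against 10426, 10402 and 12411 (-0.50, SE 0.22, adjusted p = 0.15), and was not called although the groups did not overlap. BCL2L1 stood at -2.09 in A-204 cells but -0.06 in SK-LMS-1 cells and was not called (-0.84, adjusted p = 0.17). BAX, BID and BAK1 stood at 0.51, 0.15 and -0.38, none called, and BBC3 is not analysed here.

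**Figure D2:**
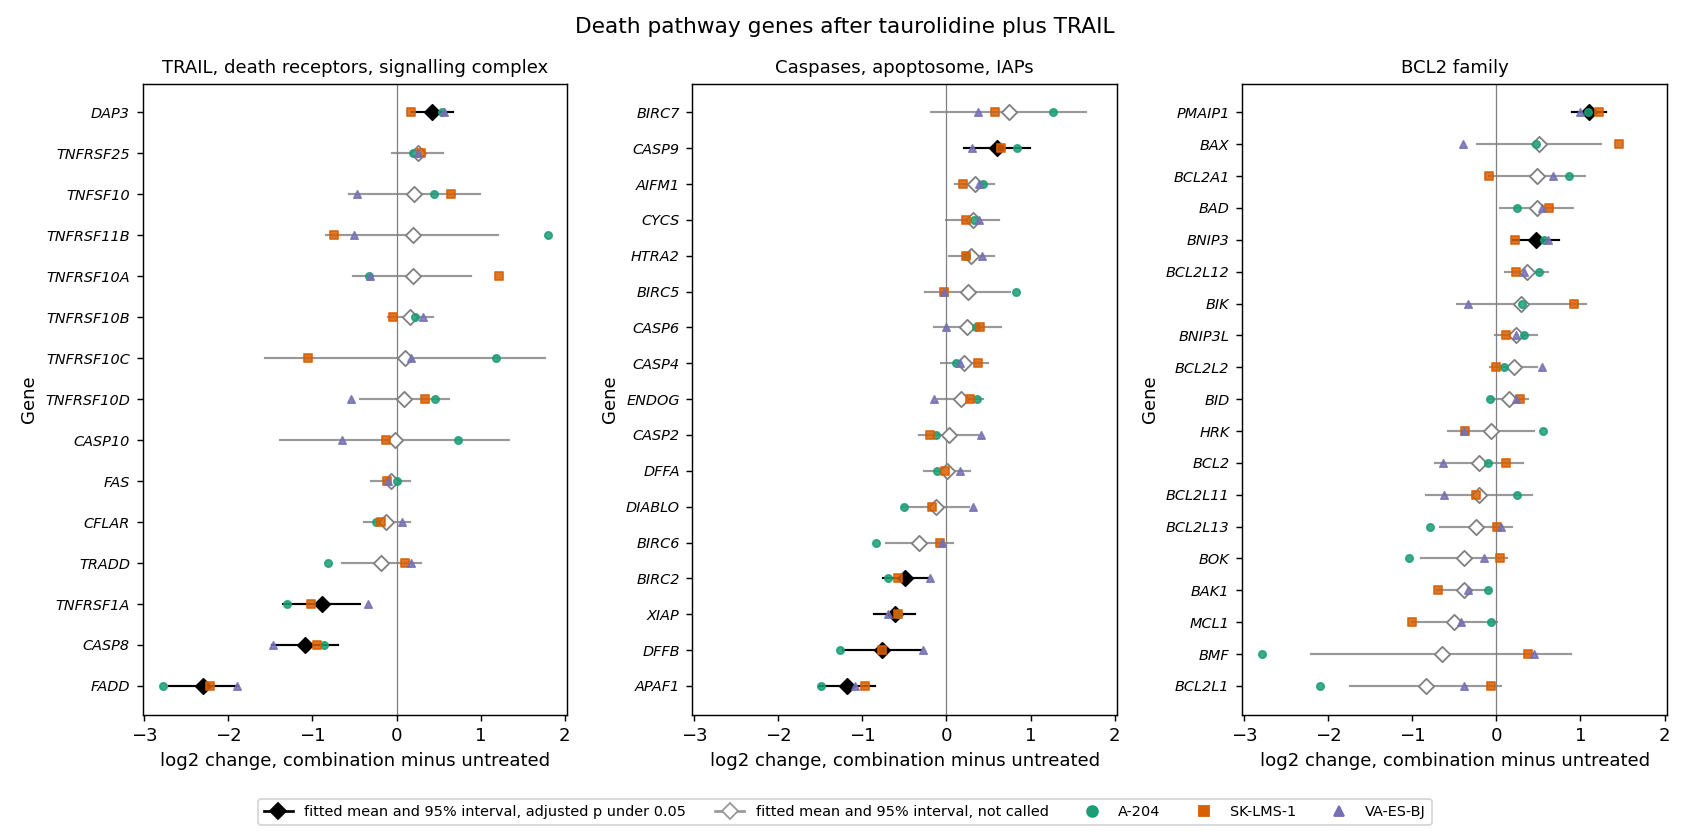
Log2 change (combination minus untreated) of the 51 tested death pathway genes, with coloured points for the lines and diamonds with bars for limma's mean and 95% interval; filled diamonds passed the threshold. FADD lies at -2.30 and PMAIP1 at 1.10, while TNFRSF10A and TNFRSF10B lie at 0.19 and 0.16.

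Among genes of transcription by RNA polymerase II, falls outnumbered rises. Of 44 tested Mediator and elongation genes 14 fell and 2 rose (median -0.34), and 1, 6 or 5 were called lower without A-204, SK-LMS-1 or VA-ES-BJ. MED26, the Mediator subunit that recruits elongation factors, had 128, 182 and 115 in combination-treated cells, against 2305, 1842 and 2247 in untreated cells (-3.82, SE 0.34, 14.1-fold, adjusted p = 0.00084). All 3 combination arrays lay near the table median and far below the untreated ones, and a second probe set gave -3.65. MED17 fell by 1.37, MED7 by 1.22 and MED23 by 1.13. The 2 other probe sets of MED17 gave -0.34 and 0.18, and the 3 of MED23 lay between -0.86 and 0.26. The cyclins of the elongation factor P-TEFb fell also, CCNT1 by 0.98 and CCNT2 by 0.91, while MED16 rose by 0.56 and MED10 by 0.46. POLR2A, the largest polymerase subunit, stood at -0.15 (adjusted p = 0.63). In the splicing list, 6 of 43 rose and 2 fell, and CCDC12 fell to 228, 459 and 259, against 3339, 3016 and 2508 (-3.24, SE 0.22).

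Among 41 chromatin modifiers 15 fell and 1 rose (median -0.22). SETD1A and SETD1B, methyltransferases of histone H3 lysine 4, fell by 2.47 and 2.34. SETD1B had 679, 601 and 347, against 3015, 3255 and 1980 (SE 0.14, adjusted p = 0.00040). The DNA demethylation enzymes TET2 and TET3 fell by 1.88 and 1.89, and the acetyltransferase genes CREBBP and EP300 by 0.84 and 0.78. In the SWI/SNF remodelling complex, 2 of 18 fell, ARID2 by 1.83 and ARID1A by 0.91, a share near the 11.3% of all genes called lower. Removing A-204, SK-LMS-1 or VA-ES-BJ left 4, 5 or 7 chromatin modifiers called lower.

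Of 15 MAP kinase phosphatase and feedback genes, which restrain signalling, 6 fell and none rose (median -0.73). With A-204, SK-LMS-1 or VA-ES-BJ left out, 0, 1 or 2 of them were called lower. DUSP7, a phosphatase of ERK, had 495, 1138 and 507, against 2257, 2510 and 2047 (-1.76, SE 0.21, adjusted p = 0.0024). DUSP16 fell by 3.13, DUSP10 by 1.32 and SPRED2 by 1.42. DUSP1 and DUSP6 were not called (0.40 and 0.60, adjusted p = 0.43 and 0.27), higher in SK-LMS-1 and lower in A-204. Of 25 genes of TGF-beta signalling 8 fell and none rose, with 0, 2 or 2 called lower when A-204, SK-LMS-1 or VA-ES-BJ was left out. SMAD7, the inhibitory SMAD, had 13.1, 179 and 87.5, against 121, 926 and 1814 (-2.97, SE 0.41, adjusted p = 0.0037), with the largest fall in VA-ES-BJ. SKIL fell by 1.22 (its 2 other probe sets gave -0.41 and 0.43), ID3 by 0.91 and SMAD3 by 0.62.

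In the Notch and Wnt list 6 of 24 fell and 1 rose. HES1, a Notch target and repressor, had 2024, 4220 and 3895, against 699, 186 and 885 (2.69, SE 0.59, adjusted p = 0.020), while AXIN2 fell by 1.79, LRP6 by 1.15 and APC by 1.03. Of 13 Krüppel-like factor genes 5 fell and KLF4 rose by 1.85. After quantile normalisation 1 was called lower, and 0, 1 or 0 when A-204, SK-LMS-1 or VA-ES-BJ was left out. Of 41 BTB and cullin ubiquitin adaptor genes 15 fell and none rose, led by KLHL25 at -2.26 and KCTD6 at -1.68. Leaving out the lines in the same order left 6, 3 or 2 called lower, and 1, 2 or 2 in the Notch and Wnt list.

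Zinc finger genes with numbered ZNF symbols were grouped after the values were seen. Of 409 tested, 177 fell and 3 rose, with a median of -0.68 against 0.02 over all genes, and they made up 11.1% of the genes called lower and 2.88% of the genes tested. ZNF627 had 286, 284 and 215 in combination-treated cells, against 2366, 1501 and 2695 (-2.98, SE 0.22, adjusted p = 0.00051). ZNF267 had 249, 330 and 274, against 1722, 1535 and 3267. Both pairs of groups lay apart. The members resemble each other in sequence, so a probe set may detect relatives, and 26, 72 or 43 were called lower when A-204, SK-LMS-1 or VA-ES-BJ was left out.

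Of 33 mitotic genes 3 fell and 1 rose, shares below the 11.3% lower and 7.58% higher over all genes. AURKA, a mitotic kinase, had 6728, 6590 and 7365, against 11849, 11755 and 12477 (-0.80, SE 0.11, adjusted p = 0.0037 by limma). TTK fell by 0.73 and MKI67 by 0.54, and UBE2C rose by 0.49. Of 25 genes of the G1 phase 4 rose and 5 fell, with E2F3 at -1.80, CDC25A at -1.77 and the inhibitor CDKN2B at 1.37. In DNA repair 7 of 32 fell and 1 rose, and 1, 5 or 1 were called lower when A-204, SK-LMS-1 or VA-ES-BJ was left out. Likewise 1, 0 or 1 mitotic genes and 0, 2 or 0 genes of the G1 phase were then called lower, and none higher. PALB2, the partner of BRCA2, had 206, 450 and 175, against 1068, 1036 and 1093 (-2.02, SE 0.25). REV3L fell by 1.18 on one probe set, while its other probe set gave 2.09.

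Among replication-dependent histone genes, which package new DNA, no call was a fall. Of 26 tested, 11 rose and none fell, with a median of 0.77, which was 0.84 after quantile normalisation and 0.32 after spike scaling. Without A-204, SK-LMS-1 or VA-ES-BJ 0, 2 or 3 were called. H3C2 had 391, 342 and 226 with the combination, against 109, 98.1 and 68.9 (1.66, SE 0.23, adjusted p = 0.0039). H2BC3 rose by 1.92, H2BC21 by 1.15 and H3C3 by 1.06. Of the 53 listed 27 were not tested. A probe set was tested only if above the table median, 136.5, on at least 3 arrays. H3C2 was below it on every untreated and TRAIL array, and so entered through arrays with taurolidine, alone or combined. A histone gene dim on every array could not enter. How far this filter shaped the counts of rises and falls was not tested. The histone copies resemble each other, so a signal may belong to several. These messages normally lack a poly-A tail.

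Oxidative phosphorylation genes, which encode the respiratory chain and ATP synthase, differed by small amounts in one direction. Of 64 tested 40 rose and none fell, with a median of 0.43 and a range of 0.07 to 0.68. NDUFA1, a subunit of complex I, had 31107, 18896 and 27108, against 16426, 13509 and 17409 (0.68, SE 0.11, adjusted p = 0.0076). After quantile normalisation 19 rose, the spike scaling gave a median of -0.02, and none was called when any 1 line was left out. The 34 ribosomal protein genes, all without a call by limma (18 at an unadjusted p below 0.05), had a median of 0.33 that became -0.12 after spike scaling. Proteasome genes gave 8 higher and 1 lower of 33, and autophagy and lysosome genes 10 higher and 1 lower of 30, among them GABARAPL1 at 0.76 and MAP1LC3B at 0.53. No gene of either list was called with any 1 line left out, and 2 proteasome genes were called higher after quantile normalisation. Beside these values stands the 0.45 by which the spike transcripts were higher on the same arrays; its part in the result was not tested.

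Glycolysis and hypoxia genes gave 7 higher and none lower of 28. ADM, a vasodilator peptide, had 24287, 37590 and 11928, against 10077, 5251 and 6447 (1.66, SE 0.46, adjusted p = 0.041), and ENO2 rose by 1.10. In the antioxidant list 5 of 25 rose and 3 fell, with AKR1C2 at 0.74 and KEAP1, the inhibitor of NRF2, at -0.89. HMOX1, a target of NRF2, stood at 0.32 (adjusted p = 0.34). Interferon-stimulated genes gave 6 higher and 1 lower of 25, with IFITM1 at 0.77 and IFIT1 at -0.94. With any 1 line left out no antioxidant or interferon gene was called, and 0, 1 or 0 of the glycolysis and hypoxia list were. After quantile normalisation 2 antioxidant and 3 interferon genes were called higher.

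The remaining lists had few calls, and with a line left out at most 1 gene of any of them was called. Of 36 DNA replication genes 6 rose and none fell, led by the polymerase subunit POLD1 at 0.70 and the helicase subunit MCM5 at 0.62. Of 23 genes of the endoplasmic reticulum stress response 2 rose, the chaperone partner DNAJB9 at 0.94 and CRELD2 at 0.46. The MYC network gave MYC itself lower and CAD higher (0.45, and 0.00 after spike scaling) of 14. Among 11 metallothionein and zinc genes the regulator MTF1 fell by 0.87 and MT1G rose by 0.41. Of 20 cholesterol synthesis genes IDI1 and LSS rose by 0.71 and 0.41 and SQLE fell by 0.80, while the 2 other probe sets of LSS gave -0.21 and 0.05. The transfer RNA synthetases gave VARS1 at 0.59 of 17, and the extracellular matrix list COL6A1 at 0.36 and TIMP1 at 0.46 of 32, with 3 of the 4 other probe sets of COL6A1 of the opposite sign. After spike scaling MT1G, LSS and COL6A1 stood at -0.04, -0.04 and -0.09. Of the lineage markers, CNN1 (smooth muscle) rose by 1.39, TNNT1 (skeletal muscle) by 0.65 and MUC1 (epithelial) by 0.58, and CDH1, the epithelial cadherin, fell by 1.16.

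**Figure D3:**
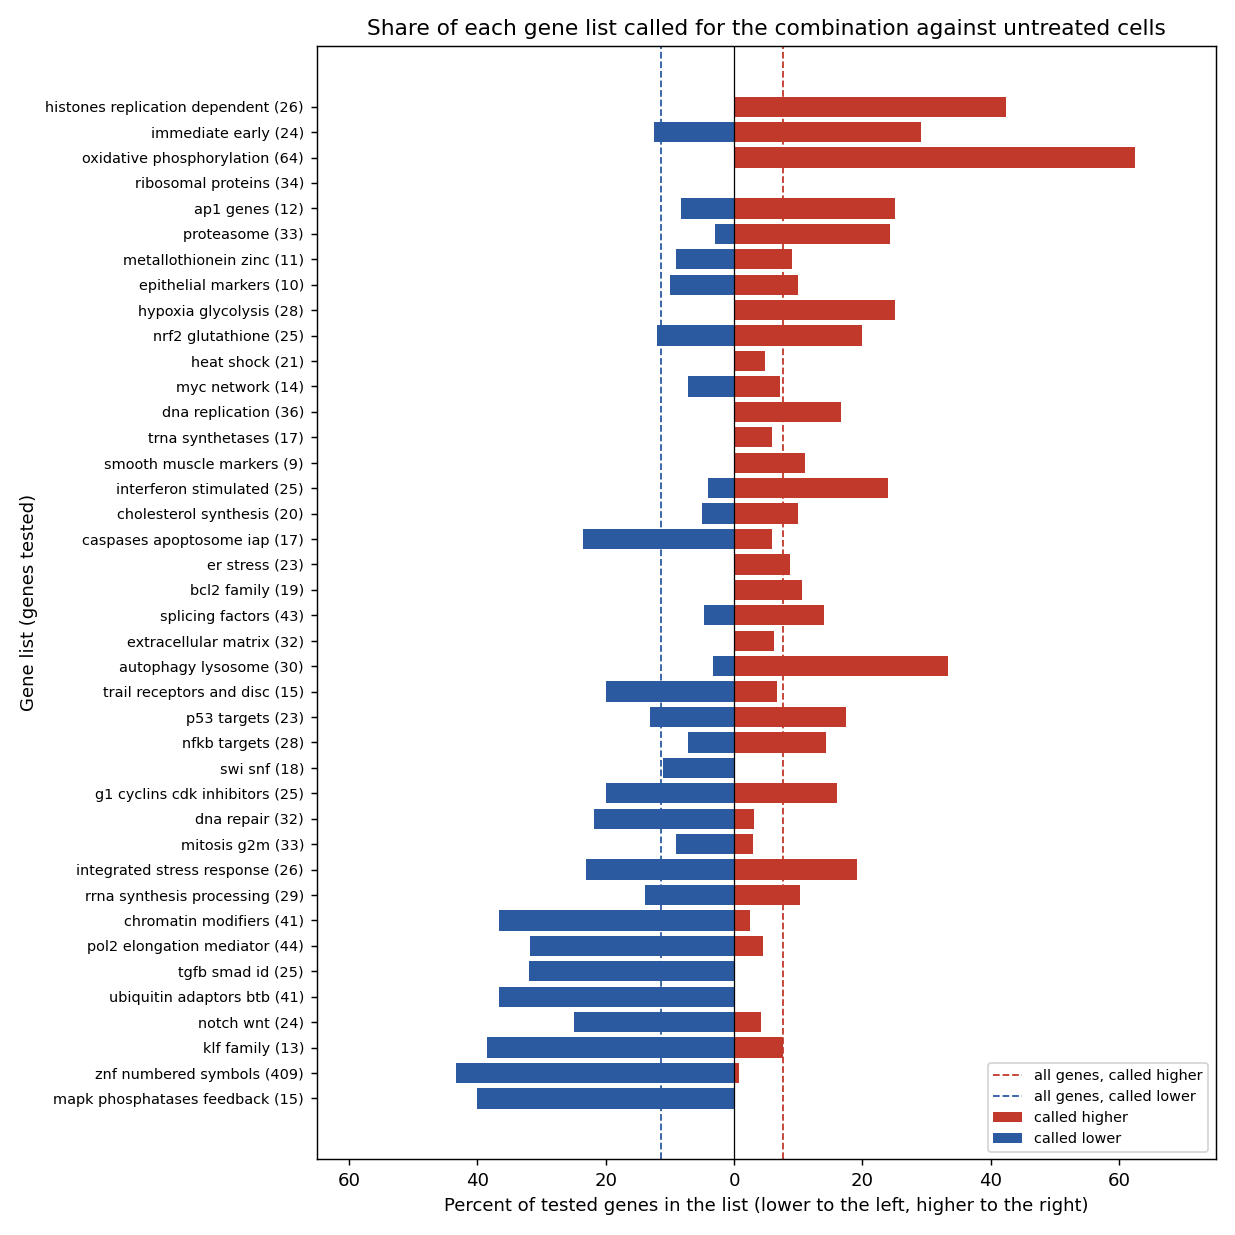
Percent of each gene list's tested members called lower (left) or higher (right) for the combination against untreated cells, ordered by the list's median change, with dashed lines at the shares over all genes (11.3% and 7.58%). Oxidative phosphorylation shows 40 of 64 genes higher, and numbered ZNF symbols 177 of 409 lower.

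The largest called rise was that of the probe set assigned to RNA45SN5, the precursor of ribosomal RNA. Its chromosome is listed as unknown. Whether the Affymetrix 3′ procedure captures this RNA as it does messenger RNA was not tested. The change is therefore given as one of signal and not of precursor amount. It had 29661, 5514 and 12650 with the combination, against 386, 231 and 151 in untreated cells (5.67, SE 0.40, 50.9-fold, adjusted p = 0.00049), and another probe set gave 4.63. Genes of ribosomal RNA synthesis and processing were called both ways: of 29 tested, including RNA45SN5, 3 rose and 4 fell, with RRS1 at -1.02 and UTP15 at -0.97. The antisense transcript ZNF143-AS1 had 343, 503 and 198, against 24.1, 27.9 and 10.5, all untreated values being below the table median. RSRP1, an arginine and serine rich gene, had 9617, 11492 and 5069, against 2394, 2062 and 1332 (2.13, SE 0.24).

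Spans and promoter letters are given as descriptions, with no test. The median genomic span (intron and exon) was 12 kb for genes called higher, 41.2 kb for those called lower and 28.5 kb for all tested. It was 5.83 kb for genes at least 2-fold higher and 34.3 kb for those at least 2-fold lower. In untreated cells the median signal was 3954 for genes called higher, 1757 for genes called lower and 1250 for all, while the genes at least 2-fold higher were dim, at 159. Brightness was not separated from span. TATAAA occurred in 20.9% of the 67 promoters available for the genes at least 2-fold higher, in 4.52% of 531 for those at least 2-fold lower, in 6.03% of all tested genes and in 11.1% of all 27305 promoters. The half-site TGACG, searched on both strands, occurred in 40.3%, 29.8%, 28.7% and 21.7% of the same sets, and the full element TGACGTCA, which contains it, in 8.96%, 1.88%, 2.73% and 1.77%. TGANTCA, an AP-1 site, occurred in 4.48%, 3.58%, 4.06% and 6.6%, and the CArG box in 2.99%, 0.565%, 1.05% and 1.14%.

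**Figure D4:**
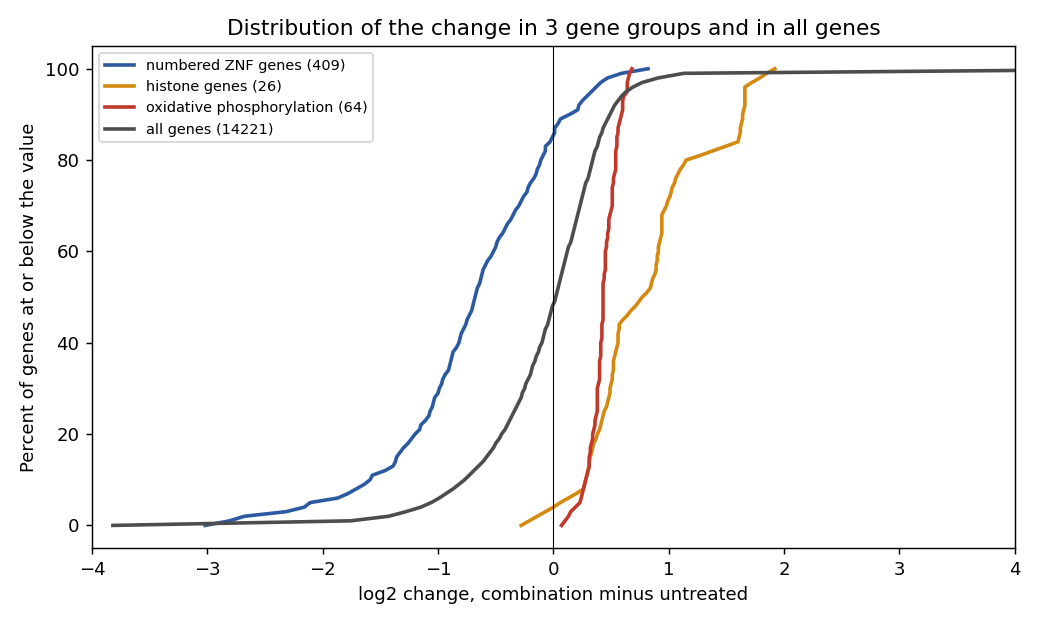
Cumulative percent of genes at or below each log2 change (combination minus untreated) for 409 numbered ZNF genes, 26 histone genes, 64 oxidative phosphorylation genes and all 14221 genes. The medians are -0.68, 0.77, 0.43 and 0.02.

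The lines differed in the number of genes past 2-fold. A-204 had 1657 genes at least 2-fold lower, SK-LMS-1 had 988 and VA-ES-BJ had 1134, and genes at least 2-fold higher 677, 699 and 400. Only 36 genes were at least 2-fold higher and 279 at least 2-fold lower in all 3 lines. Over the genes called lower, A-204 had a median change of -1.07, SK-LMS-1 of -0.76 and VA-ES-BJ of -0.80. Within A-204 the lowest ratios to untreated cells included KIF7, a kinesin of Hedgehog signalling, at 23.2 against 889, and the zinc receptor GPR39 at 9.09 against 457. In SK-LMS-1 ZNF792 had 4.84 with the combination, against 552. With 1 array for each line and treatment, differences between lines have no replicate check.

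No gene told the combination from taurolidine alone in the test across genes. Against taurolidine alone 0 of 14221 genes were called by limma (0%), and the smallest adjusted p was 0.8. An unadjusted p below 0.05 was found for 376 genes, fewer than the 711 expected by chance. Such a shortfall can arise where the spread pooled over all arrays is too wide for a contrast, which was not tested. The test may thus be conservative here, and the shortfall is no evidence that the treatments are alike. The combination and taurolidine arrays share the untreated arrays as their baseline, so the changes from untreated cells are not independent. Set directly against each other, the combination and taurolidine differed by a median absolute 0.07 on the log2 scale over the 2679 genes, and by under 0.5 for 97.2% of them. The 95% interval of the difference lay within 1 in either direction for 94.6%. A difference below a median half-width of 0.32 could not be told from none.

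For the early-response genes the differences were small, with intervals of unequal width. FOS had 4939, 21662 and 3289 with the combination and 6106, 20857 and 2692 with taurolidine alone, a difference of 0.01 (95% interval -1.73 to 1.76). ATF3 had 6344, 6016 and 6804, against 3922, 6311 and 8347 with taurolidine alone (0.11, -0.92 to 1.14). EGR3 differed by 0.10 (-0.20 to 0.41), the narrowest of these intervals.

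For the death pathway genes described above the intervals were as follows. FADD had 798, 1195 and 630, against 1033, 974 and 594 with taurolidine alone (0.00, -0.41 to 0.42). PMAIP1 had 2498, 22540 and 11673, against 2656, 22625 and 13052 (-0.08, -0.29 to 0.12). CASP8 differed by -0.03 (-0.43 to 0.36) and TNFRSF10B by 0.08 (-0.18 to 0.35). Over the 15, 17 and 19 tested genes of the receptor, caspase and BCL2 lists the smallest unadjusted p was 0.2, 0.14 and 0.14.

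No gene of smallest p for this difference was called. SLFNL1 had 375, 271 and 228 with the combination, against 87.3, 53.5 and 108 with taurolidine alone (1.69, 1.13 to 2.26). NSMCE3, a subunit of the SMC5/6 complex, had 718, 1015 and 664, against 300, 698 and 356 (0.88, 0.57 to 1.19), lower than in untreated cells under either treatment. GSX2 had 175, 108 and 119, against 289, 271 and 270 (-1.01, -1.34 to -0.69). SETD1A, named above, was lower by a further 0.96 (-1.43 to -0.48). One sign in all 3 lines was a condition for naming genes by this difference, so that agreement lends them no weight. Nor do their intervals, since the genes were picked by smallest p from 14221.

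Against TRAIL alone the combination gave 2298 calls (16.2%), 928 higher (6.53%) and 1370 lower (9.63%). FOS had 4939, 21662 and 3289 with the combination, against 486, 201 and 179 with TRAIL alone (4.70, SE 0.76, adjusted p = 0.0076). HSPA6 had 2951, 22206 and 649, against 534, 55.0 and 74.3 (4.59, SE 1.26, adjusted p = 0.045), so that it passed here and not against untreated cells. MED26 had 128, 182 and 115, against 2342, 1665 and 1691 (-3.64, SE 0.34), and FADD 798, 1195 and 630, against 5701, 5383 and 2552 (-2.33, SE 0.18). Leaving out A-204, SK-LMS-1 or VA-ES-BJ gave 256, 479 or 305 calls.

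**Figure D5:**
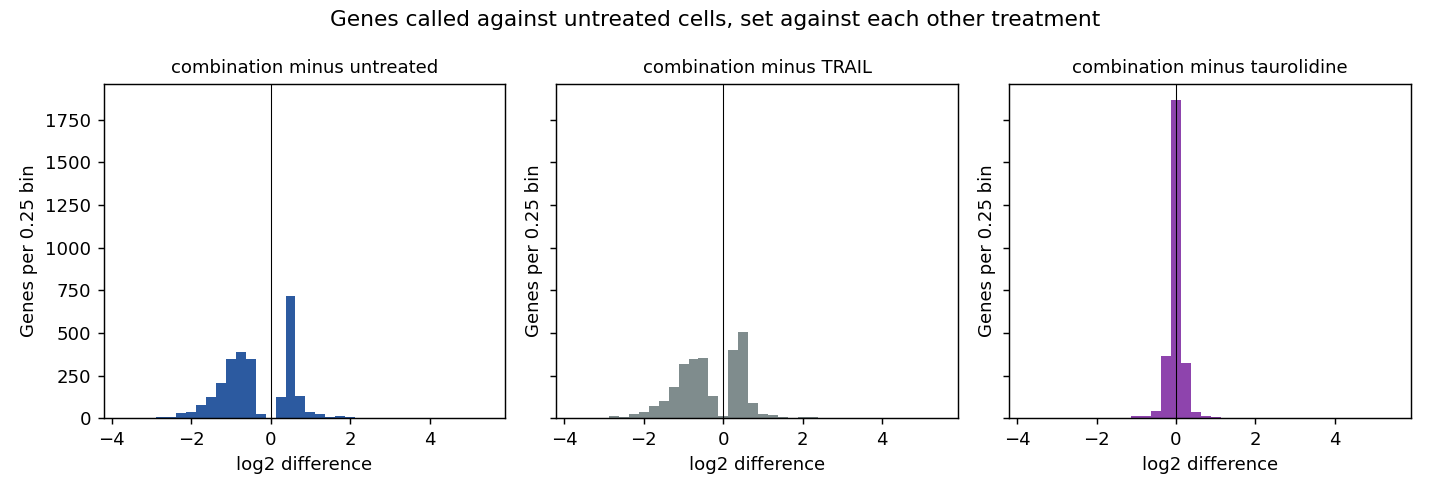
Histograms (genes per bin of 0.25) of the log2 difference between the combination and untreated cells, TRAIL alone and taurolidine alone, over the 2679 genes called against untreated cells. The genes were chosen by the first difference, which empties its centre, and 97.2% of them lie within 0.5 of 0 against taurolidine.

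The departure from additivity, the combination's change minus the sum of the changes under each agent, was tested on the log2 scale. No gene of 14221 was called by limma (0%), with a median 95% half-width of 0.58. An unadjusted p below 0.05 was found for 540 genes, fewer than the 711 expected by chance. As against taurolidine alone, the test may be conservative, and the shortfall is no evidence of additivity. TTF2, a transcription termination factor, was among the positive genes of smallest p, with 2387, 3623 and 2825 under the combination, 2048, 2504 and 2553 under taurolidine alone, 1763, 2657 and 2086 under TRAIL alone and 3136, 3652 and 3764 in untreated cells. Its departure was 1.01 (95% interval 0.63 to 1.39, unadjusted p = 0.00029). In each line the combination's value lay between those of either agent alone and of untreated cells. On the negative side NPTN-IT1 departed by -1.32 (-1.91 to -0.74) at signals of 22.3 to 66.9 under the combination. For FADD the departure was -0.02 (-0.61 to 0.56), for PMAIP1 -0.05 (-0.34 to 0.24) and for EGR3 0.01 (-0.42 to 0.44).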

How the data were processed

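RNA of 3 lines under 4 treatments was measured on 12 arrays. Per the labels' protocols, biotinylated cRNA was made by the Affymetrix 3′ procedure. The deposited values are intensity, made with MAS5 per the submitters' processing notes; no source used here gives detection calls or the scaling target. Of 54675 probe sets, 41097 had a single gene. A probe set was tested if above the table median, 136.5, on at least 3 arrays. The probe set with the highest mean log2 stood for a gene, and 11.8, the 10th percentile, was added before log2. Treatment and line were terms of 1 model over all 12 arrays (R 4.3.3, limma 3.58.1), 6 residual and 1.99 prior degrees of freedom, and Benjamini-Hochberg adjustment.

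Arrays of one line were paired because they are the same line. Deviations from the group means of combination and untreated arrays correlated at 0.852 to 0.883 within a line and -0.47 to -0.386 between lines. No 2 arrays shared more than 0.00183% of values. On simulated data for the combination against untreated cells (14221 genes, 200 changed), 10.8% of changes of 0.5, 52.2% of 1 and 81.5% of 2 were recovered, with 6.61% of calls false. The simulation shifted each changed gene equally in every line and only on the combination arrays. In the data 2679 genes were called and the lines differed, so these rates need not hold there. The number of arrays limits the precision.

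The members and the 43 gene lists, holding 1166 genes of which 1009 were tested, were chosen with earlier results of these data known. Named genes were the 15 largest rises and falls called with one sign in all lines, up to 4 of each list, every tested death pathway gene, the 5 at each end of the other contrasts, 3 at each end within a line, and the 6 of widest range between lines. EGR1, JUN, ATF4, CDKN1A, CCNT1, H2BC21 and other list members outside this rule were added after their values were seen. Alternatives were the constant, filter, scaling, probe choice, model and each line left out.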

Additional observations from a re-analysis of the deposited data

Results flagged for a closer look

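Among genes at or above 1 in one line and at or below -1 in another, 6 had the widest range between lines, and the difference was not tested, since each line has 1 array for each treatment. HBM stood at -2.97 (log2) in A-204, at 3.03 in SK-LMS-1 and at 0.40 in VA-ES-BJ, a range of 5.99. NLRP3 spanned 5.51, SSX1 5.28, USP2-AS1 5.20, GTF2IP12 5.16 and PLB1 4.96. Each of the 6 had at least 1 of its 6 signals below the table median of 136.5. None was called for the combination against untreated cells.

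Probe sets without a single listed gene, which no comparison above uses, also changed. Of 5316 tested, 523 were called for the combination against untreated cells (9.84%), 221 higher and 302 lower, against 13.3% of the probe sets with a gene. The largest rise was 4.08 and the largest fall -3.14 on the log2 scale.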

How the results depend on the processing

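For the combination against untreated cells 2679 genes were called, and 1535 with no filter, 1764 without the TRAIL arrays, 4175 with equal array medians, 4989 with spike scaling and 0 with only the 6 arrays. With no replicate block the count was 158, and 146 against TRAIL alone. Leaving out one line gave 232 to 499, and 256 to 479 against TRAIL alone. Against TRAIL alone, 2298 became 1157 with no filter, 3664 with equal medians and 6362 with spike scaling. Against taurolidine alone 1 gene, EBF2 (-1.80), was called with no filter, and 0 in the other settings; the departure gave 0 in each setting run. Spike scaling moved the median of all genes to -0.43 and turned 387 calls. Under it DAP3 became -0.03, MT1G -0.04, CAD 0.00, TK1 -0.03, RFC2 -0.06, LSS -0.04, COL6A1 -0.09, CDK4 -0.04, NQO1 -0.10 and TXN -0.01. REV3L became 0.46 as the mean of its probe sets. Except for the constructions that use fewer arrays or more genes, the cause was not tested. Of the 15 named rises 8 to 12, and of the 15 falls 8 to 12, were still called with a line left out. Their sign could not change, since these genes were chosen for one sign in all lines.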
